A study of Mus musculus with 32 samples.

Results

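Purinergic signalling was followed through 8 genes in the microglia transcriptome of the rTg4510 tau model. They were the P2Y receptor genes P2ry12, P2ry13 and P2ry6, the P2X channel genes P2rx4 and P2rx7, the adenosine receptor gene Adora3, and the ectonucleotidase genes Entpd1 (CD39) and Nt5e (CD73). The 8 genes were chosen by name as purinergic receptors and ectonucleotidases of microglia, without a threshold on any measured value. Earlier results of these data were known when they were chosen. All 8 were among the 18588 genes of the deposited log2 signal table. The study profiled microglia of rTg4510 and wild-type (WT) mice at 2, 4, 6 and 8 months of age by RNA sequencing, to follow the cells as tau pathology develops. Each genotype and age had 4 libraries, and the study left out 1 library of each genotype at 4 months and at 8 months for failing quality control, so that 28 of 32 libraries were used here, 4 a group at 2 and 6 months and 3 a group at 4 and 8 months. Values are listed by replicate number, and libraries are named by it, the ones left out being the third of 4 months and the fourth of 8 months.

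All animals were female. rTg4510 mice carry a human 4-repeat tau transgene with the P301L mutation under a tetracycline-responsive promoter, together with a tetracycline transactivator driven by the CaMKIIα promoter, so that mutant tau is made in forebrain neurons and can be switched off with doxycycline. WT mice carried neither transgene, and their strain is given as 129/FVB F1. A library held microglia pooled from the forebrains of several animals, taken from the dissociated tissue with magnetic beads against CD11b, so that the replicates are pools and the tests measure the spread between pools. Fewer cells of a type and less RNA per cell cannot be told apart in such bulk samples.

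Microglia sense nucleotides released by neurons and damaged cells. ATP opens the P2X channels, ADP acts on the Gi-coupled receptors P2Y12 and P2Y13, and UDP acts on P2Y6, while CD39 on the cell surface breaks ATP and ADP down to AMP and CD73 turns AMP into adenosine, the ligand of the A3 receptor encoded by Adora3. P2Y12 steers the processes of resting microglia toward a site of injury and is widely used as a marker of the homeostatic state, P2Y6 drives phagocytosis, P2X7 feeds the NLRP3 inflammasome, and P2X4 is known for its rise in spinal microglia after nerve injury.

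The microglial identity of the libraries was checked on 8 marker genes, all of them present. Cx3cr1 lay at a log2 signal of 13.02 to 14.05 over the 28 libraries, Csf1r at 11.89 to 12.45, Tmem119 at 10.62 to 11.92 and Sall1 at 8.84 to 10.19. Of these 8 markers, 1, 2, 3 and 3 were called lower in rTg4510 at 2, 4, 6 and 8 months, and their summed level was 14.65 to 15.12 in WT libraries and 14.34 to 14.86 in rTg4510 libraries on the log2 scale. Of 7 neutrophil markers, 0, 0, 6 and 6 were called lower in rTg4510 at the 4 ages. Libraries of a group correlated at 0.936 to 0.966 across genes, and read totals were not given in the table, so that the depth behind a value is unknown.

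Differentially expressed genes (DEGs) were those that differed by over 1.5 fold with a false discovery rate (FDR) below 0.05, in a linear model over the 8 groups with the FDR taken over all 18588 genes of each contrast. In rTg4510 microglia P2rx4 rose and P2ry13 fell, each to about a 2-fold difference from WT at 6 and 8 months. Entpd1 fell by close to 1.5 fold from 4 months on, Adora3 was lower by less than that, and P2ry12 was lower by a small margin. Adora3, P2ry12, P2ry6, P2rx7 and Nt5e did not pass the DEG threshold at any age. At 2 months 0 of the 8 genes were DEGs by the unmoderated limma test, where 1.98% of all genes were, and 1 of 8 had an unadjusted p under 0.05, as did 16.5% of all genes. At 4 months P2rx4 was called higher, where 9.47% of all genes were, and P2ry13 and Entpd1 lower, where 4.33% were. At 6 months P2rx4 was called higher and P2ry13 lower, with 11.3% and 8.54% of all genes called in these directions, and at 8 months the same pair was called, with 10.5% and 5.37%. With 8 genes, counts of 1 or 2 lie near these shares, and nothing is read from them about the set.

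**Figure D1:**
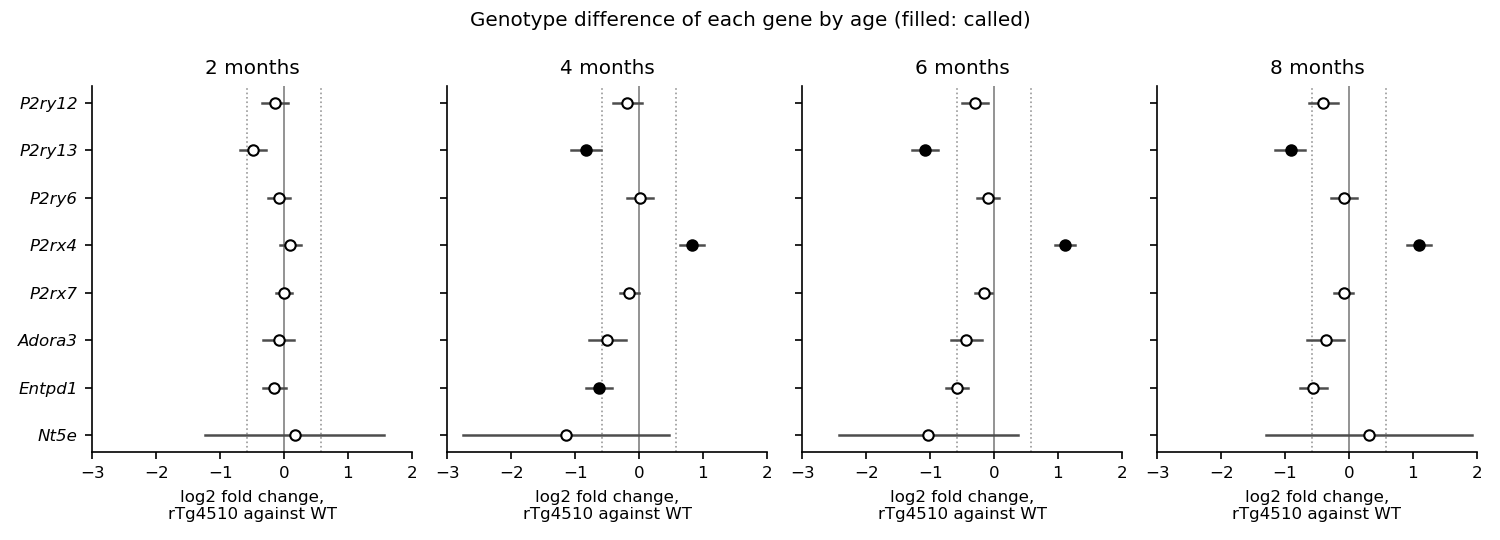
Log2 fold change of rTg4510 against WT for the 8 genes, one panel per age. Points are estimates, bars are 95% confidence intervals, filled points are DEGs and the dotted lines mark 1.5 fold. P2rx4 moved from 0.10 at 2 months to 1.11 at 6 months, P2ry13 from -0.49 to -1.08, and the intervals of Nt5e were the widest of the 8.

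At FDR alone, without the fold threshold, 1, 4, 6 and 4 of the 8 genes passed at 2, 4, 6 and 8 months, where 6.03%, 23.2%, 34.1% and 25.7% of all genes passed. The libraries of the 2 genotypes did not overlap for 1 of 8 genes at 2 months and for 5 of 8 at each of 4, 6 and 8 months, and among all genes they did not overlap for 11%, 36.6%, 32.8% and 36.7%. The median log2 fold change of the 8 genes was -0.08, -0.34, -0.36 and -0.22 at 2, 4, 6 and 8 months, and that of all genes was 0.01, -0.04, -0.04 and -0.01. Over the mean of the 4 ages, P2rx4 (0.78, FDR = 1.35e-12) and P2ry13 (-0.83, FDR = 2.6e-11) were called, where 16.5% of all genes were.

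**Figure D2:**
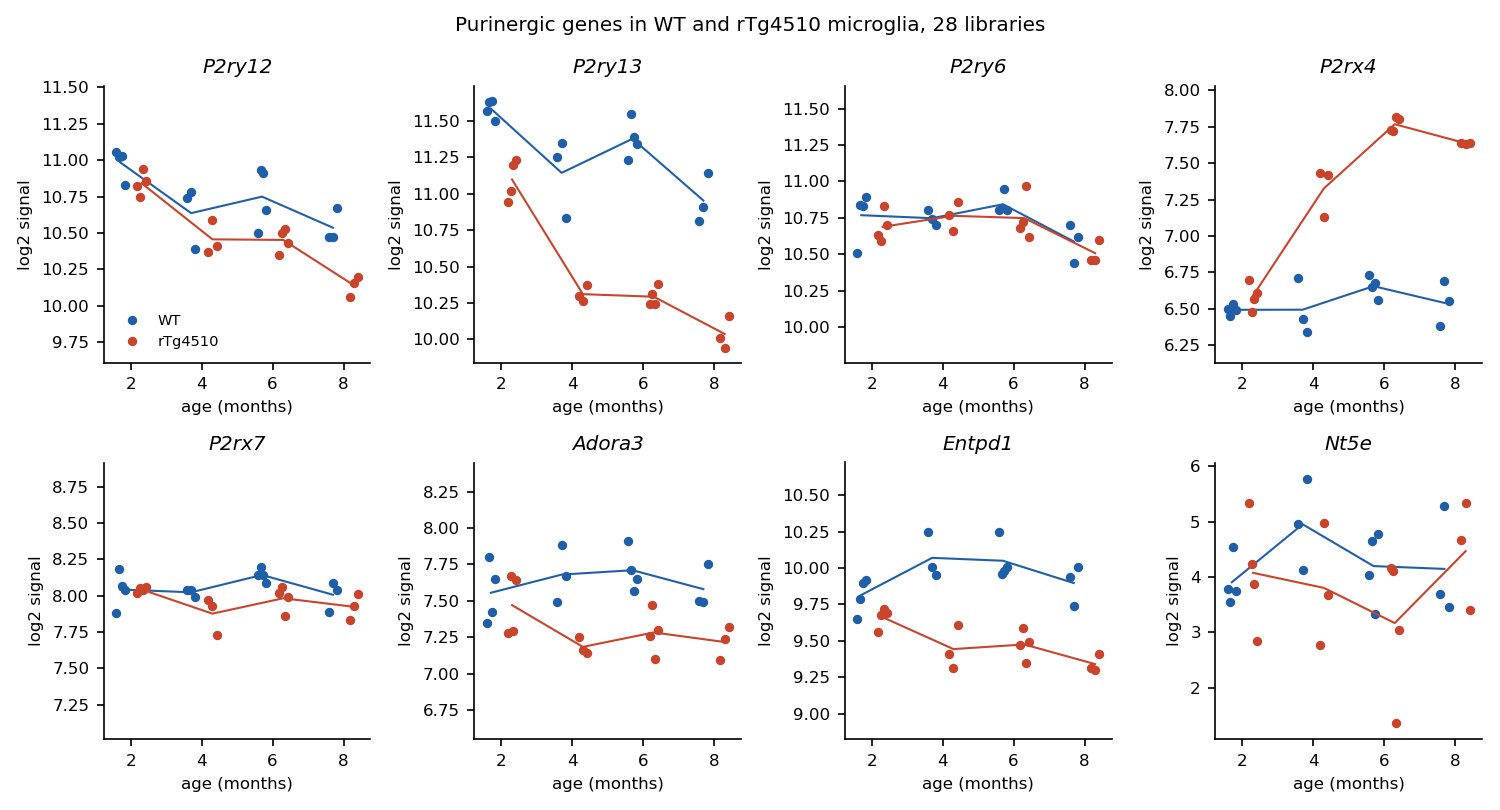
Log2 signal of the 8 genes in each of the 28 libraries against age, blue for WT and red for rTg4510. Points are libraries and lines join group means. The red P2rx4 points sit at 7.13 to 7.82 from 4 months on and the blue ones at 6.34 to 6.73, while the points of P2ry6 are mixed at every age.

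P2ry12 and P2ry13 encode the pair of ADP receptors of microglia and lie next to each other on chromosome 3 of GRCm38, P2ry12 at chr3:59216272-59262871 and P2ry13 at chr3:59207892-59210882, both on the minus strand and 5.39 kb apart. Both stand inside a host gene, Med12l (chr3:59005825-59318682, plus strand), a paralogue of a Mediator kinase-module subunit. Their promoters, from 250 bases before to 50 bases after the annotated start, are shown because the neighbours differed in how far they fell. They were taken from RefSeq (GRCm38.p6), P2ry12 at chr3:59262936-59263235 and P2ry13 at chr3:59210833-59211132, and are written 5′ to 3′ on the minus strand. Capitals mark the letters of an E-box (CACGTG), searched on both strands together with a PU.1 element (GAGGAAGT) and an AP-1 element (TGANTCA).
P2ry12: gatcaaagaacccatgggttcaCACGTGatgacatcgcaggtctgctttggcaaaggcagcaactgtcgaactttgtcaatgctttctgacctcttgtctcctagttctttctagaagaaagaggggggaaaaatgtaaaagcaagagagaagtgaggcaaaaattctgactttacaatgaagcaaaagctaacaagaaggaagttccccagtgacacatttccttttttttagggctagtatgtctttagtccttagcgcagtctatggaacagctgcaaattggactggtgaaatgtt
P2ry13: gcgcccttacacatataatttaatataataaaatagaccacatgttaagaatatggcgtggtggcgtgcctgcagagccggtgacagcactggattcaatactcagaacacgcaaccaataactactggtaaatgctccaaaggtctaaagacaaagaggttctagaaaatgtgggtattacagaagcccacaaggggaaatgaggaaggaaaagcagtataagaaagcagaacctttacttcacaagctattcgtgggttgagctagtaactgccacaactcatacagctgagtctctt
The P2ry12 window held 1 E-box, 228 bases before the start, and the P2ry13 window held none of the 3 motifs. Of 32851 promoters of the same length, 7.15% held the E-box, 3.2% the PU.1 element and 7.81% the AP-1 element. Both windows had a GC content of 42.3%, with 4 CpG in P2ry12 and 6 in P2ry13.

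P2ry12 showed a small difference that passed FDR at 6 and 8 months and did not reach 1.5 fold. Its log2 signal in WT was 11.06, 11.02, 11.03 and 10.83 at 2 months, 10.74, 10.78 and 10.39 at 4 months, 10.50, 10.93, 10.91 and 10.66 at 6 months and 10.47, 10.47 and 10.67 at 8 months. In rTg4510 it was 10.82, 10.75, 10.94 and 10.86 at 2 months, 10.37, 10.59 and 10.41 at 4 months, 10.35, 10.50, 10.53 and 10.43 at 6 months and 10.06, 10.16 and 10.20 at 8 months. The genotypes overlapped at 2, 4 and 6 months, and at 8 months every rTg4510 library lay below every WT library. The log2 fold change was -0.14 at 2 months (limma, SE 0.0954, FDR = 0.538) and -0.18 at 4 months (SE 0.11, FDR = 0.27). It was -0.30 at 6 months (SE 0.0954, FDR = 0.019) and -0.40 at 8 months (SE 0.11, FDR = 0.0102), that is 1.23 and 1.32 fold. The P2ry12 call depended on the scaling of the libraries. With quantile normalization its log2 fold change was -0.70 at 6 months (FDR = 2.18e-06) and -0.73 at 8 months (FDR = 1.05e-05), both past the DEG threshold, and with all 32 libraries its FDR was 0.25 and 0.253. FDR rose to 0.0767 at 6 months without the second WT library of that age, and to 0.0597 at 8 months without the third WT library of that age.

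P2ry13 fell in rTg4510 at every age, by less than 1.5 fold at 2 months and past the DEG threshold from 4 months on. Its log2 signal in WT was 11.57, 11.63, 11.64 and 11.50 at 2 months, 11.25, 11.35 and 10.83 at 4 months, 11.23, 11.55, 11.39 and 11.34 at 6 months and 10.81, 10.91 and 11.14 at 8 months. The rTg4510 libraries lay at 10.94, 11.02, 11.20 and 11.23 at 2 months, 10.30, 10.26 and 10.37 at 4 months, 10.24, 10.31, 10.24 and 10.38 at 6 months and 10.01, 9.94 and 10.16 at 8 months. Every rTg4510 library lay below every WT library of its age, at all 4 ages. The log2 fold change was -0.49 at 2 months (SE 0.0975, FDR = 0.00284), -0.83 at 4 months (SE 0.113, FDR = 8.08e-06), -1.08 at 6 months (SE 0.0975, FDR = 1.44e-08) and -0.91 at 8 months (SE 0.113, FDR = 1.91e-06). These are lower by 1.4, 1.78, 2.12 and 1.88 fold. Of the 8 genes P2ry13 was the only one past FDR at 2 months with the values as deposited. With quantile normalization it was a DEG at that age (-0.68) and P2ry12 passed FDR as well (-0.32, FDR = 0.0361). With the 2 groups of the age alone its FDR at 4 months was 0.0552, and with all 32 libraries its FDR at 2 months was 0.467.

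Within a library the signal of P2ry12 was set against that of P2ry13, which removes any scaling common to both genes. The log2 ratio of P2ry12 to P2ry13 was higher in every rTg4510 library than in every WT library at each age, by 0.35, 0.65, 0.79 and 0.52 at 2, 4, 6 and 8 months. Exact two-sided permutation of the genotypes gave p = 0.0286 at 2 and 6 months and 0.1 at 4 and 8 months, which are the smallest values that 4 against 4 and 3 against 3 libraries allow. The mean difference over the 4 ages was 0.58 (SE 0.0383), with p = 1.02e-06 by exact permutation within ages, the smallest it can give, and 1.53e-05 after adjustment over the 15 ratio tests made. These permutations treat the libraries as unpaired. With libraries of the same replicate number taken as pairs, exact permutation within pairs gave p = 0.125 at 6 months and 0.25 at 8 months. Over the 4 ages, with pairs at every age, that permutation gave p = 0.000122. P2ry13 thus lay lower relative to P2ry12 in rTg4510, a comparison that the scaling of whole libraries does not touch. The ratio difference was 0.58 with quantile normalization and 0.53 with all 32 libraries.

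**Figure D3:**
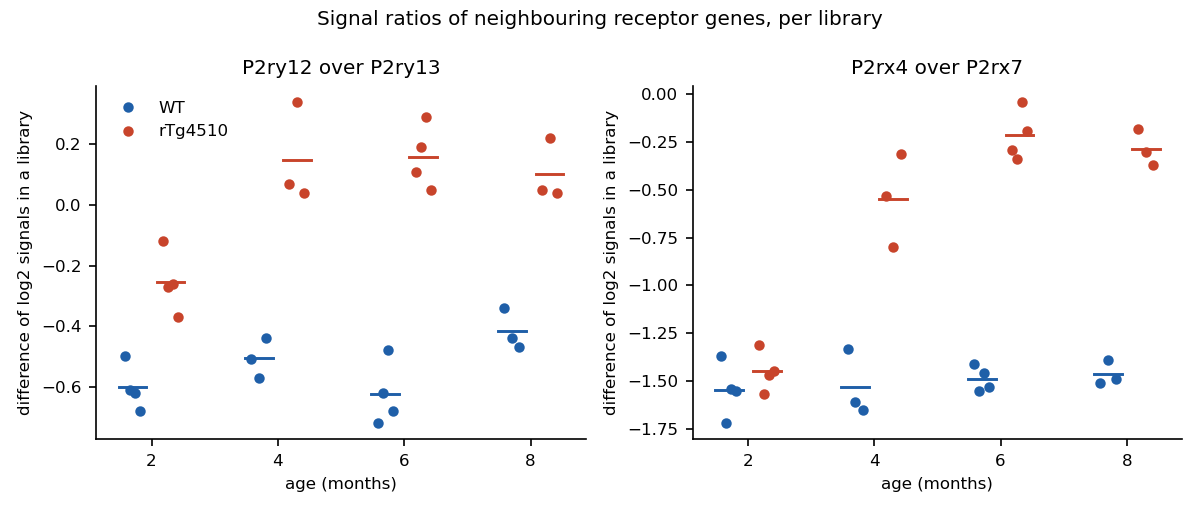
Log2 signal ratio in each library of P2ry12 over P2ry13 (left) and P2rx4 over P2rx7 (right) against age in months, blue for WT and red for rTg4510. Points are libraries and bars are group means. Red lies above blue at all 4 ages on the left, and at 4, 6 and 8 months on the right, where the 2-month points overlap.

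Med12l, the host gene, fell beside P2ry13. Its log2 fold change was -0.35 at 2 months (FDR = 0.000584), -0.98 at 4 months (FDR = 7.64e-10), -1.33 at 6 months (FDR = 4.6e-13) and -1.30 at 8 months (FDR = 1.09e-11). P2ry12 shares 9 exonic bases with Med12l and P2ry13 shares 0 in the annotation. Med12l also shares 1948 exonic bases, 15.3% of its exonic length, with Igsf10 on the opposite strand. The library kit does not mark strand, so that reads from Med12l and from these genes could not be told apart where they overlap. The part of Igsf10 in the Med12l value was not tested. P2ry14, the UDP-glucose receptor gene in the same host, had log2 fold changes of 0.19, -0.38, 0.95 and 0.69 at 2, 4, 6 and 8 months and was not called (FDR = 0.0722 at 6 months). With the replicate number as a block it was called higher at 6 months (0.95, FDR = 0.0215), as it was without the first WT library of 6 months (1.22) or without the fourth WT library of 2 months or the first of 8 months (both 0.95).

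**Figure D4:**
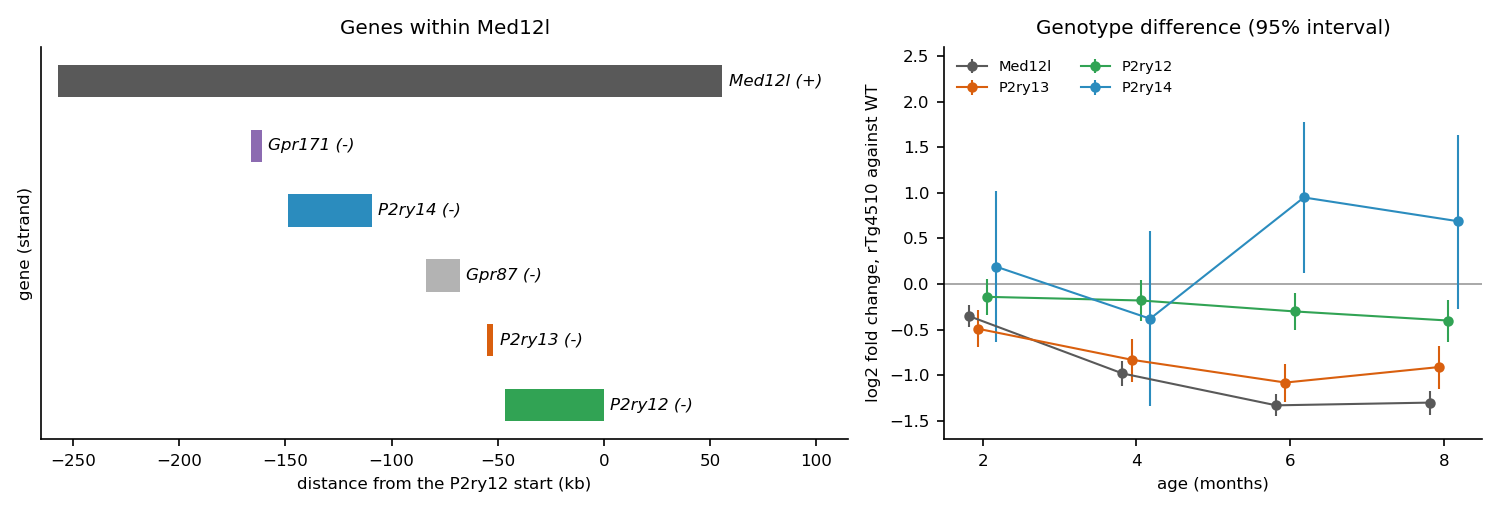
Left, the genes that lie within Med12l, drawn to scale by distance in kb from the P2ry12 start, with their strands. Right, log2 fold change of rTg4510 against WT with its 95% confidence interval for Med12l, P2ry13, P2ry12 and P2ry14 at 4 ages, where Med12l and P2ry13 are below 0 throughout and P2ry12 lies nearer to 0.

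P2ry6 encodes the UDP receptor of phagocytosis (chr7:100937630-100974649, minus strand, GRCm38), and its genotypes were mixed at every age. Its WT signal was 10.51, 10.84, 10.83 and 10.89 at 2 months, 10.80, 10.74 and 10.70 at 4 months, 10.80, 10.82, 10.95 and 10.80 at 6 months and 10.70, 10.44 and 10.62 at 8 months. In rTg4510 it was 10.63, 10.59, 10.83 and 10.70 at 2 months, 10.77, 10.66 and 10.86 at 4 months, 10.68, 10.72, 10.97 and 10.62 at 6 months and 10.46, 10.46 and 10.60 at 8 months. The libraries overlapped at all 4 ages. Its log2 fold change was -0.08 at 2 months (95% interval -0.25 to 0.10), 0.02 at 4 months (-0.19 to 0.22), -0.09 at 6 months (-0.27 to 0.08) and -0.08 at 8 months (-0.28 to 0.13), with limma FDR of 0.757, 0.937, 0.422 and 0.614. These intervals leave out a 1.5-fold change in either direction. With quantile normalization P2ry6 was lower by FDR at 4, 6 and 8 months, at -0.35 (FDR = 0.0203), -0.54 (FDR = 8.63e-05) and -0.47 (FDR = 0.00193), and was past 1.5 fold at none of them, so the size of its difference depends on the scaling.

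P2rx4 and P2rx7 encode ATP-gated channels and are neighbours on the plus strand of chromosome 5, P2rx7 at chr5:122643911-122691432 and P2rx4 at chr5:122707544-122729738 (GRCm38), 16.1 kb apart. Their RefSeq promoters (GRCm38.p6) are shown because the neighbours differed in their response. They lie at chr5:122707294-122707593 for P2rx4 and chr5:122643677-122643976 for the upstream of 2 P2rx7 starts, and the capitals mark an AP-1 element (TGANTCA).
P2rx4: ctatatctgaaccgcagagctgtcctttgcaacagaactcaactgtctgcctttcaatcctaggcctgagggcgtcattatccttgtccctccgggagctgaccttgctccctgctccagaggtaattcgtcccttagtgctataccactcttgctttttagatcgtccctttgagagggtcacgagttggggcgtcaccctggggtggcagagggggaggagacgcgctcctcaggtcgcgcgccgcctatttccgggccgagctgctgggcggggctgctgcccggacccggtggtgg
P2rx7: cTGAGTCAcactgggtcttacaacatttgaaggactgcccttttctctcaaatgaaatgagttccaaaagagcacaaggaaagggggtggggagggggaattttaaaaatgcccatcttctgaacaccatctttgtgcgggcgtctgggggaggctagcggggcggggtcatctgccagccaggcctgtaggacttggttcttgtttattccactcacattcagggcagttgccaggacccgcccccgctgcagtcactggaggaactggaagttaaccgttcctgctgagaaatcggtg
The P2rx7 window held 1 AP-1 element, 249 bases before the start, and the P2rx4 window held none of the 3 motifs. The window of the other P2rx7 start (chr5:122650133-122650432), not printed, held a PU.1 element on the minus strand just after its start. The P2rx4 window had a GC content of 60.3% with 18 CpG, and the P2rx7 window 53.3% with 8 CpG.

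P2rx4 was the member that rose. Its WT signal was 6.50, 6.45, 6.53 and 6.49 at 2 months, 6.71, 6.43 and 6.34 at 4 months, 6.73, 6.65, 6.68 and 6.56 at 6 months and 6.38, 6.69 and 6.55 at 8 months. The rTg4510 signal was 6.70, 6.48, 6.57 and 6.61 at 2 months, 7.43, 7.13 and 7.42 at 4 months, 7.73, 7.72, 7.82 and 7.80 at 6 months and 7.64, 7.63 and 7.64 at 8 months. The genotypes overlapped at 2 months, and from 4 months on every rTg4510 library lay above every WT library. The difference on the log2 scale was 0.10 at 2 months (SE 0.0766, FDR = 0.621), 0.83 at 4 months (SE 0.0885, FDR = 3.27e-07), 1.11 at 6 months (SE 0.0766, FDR = 3.32e-10) and 1.09 at 8 months (SE 0.0885, FDR = 7.12e-09). At the last 3 ages this was 1.78, 2.16 and 2.14 fold. The genotype difference itself grew between 2 and 4 months, by 0.74 (SE 0.117, FDR = 0.000425), and between 2 and 8 months, by 1 on the log2 scale (FDR = 1.01e-05), in contrasts where 4.66% and 6.7% of all genes were called. From 4 to 6 months the difference was 0.28 (limma, FDR = 0.521), which did not pass, in a contrast where 0.156% of all genes were called. Leaving out any 1 library kept the 4-month change between 0.75 and 0.94, and with all 32 libraries it was 0.51 (FDR = 0.0325) and not called.

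P2rx7 had no DEG call at any age. Its WT signal was 7.88, 8.18, 8.07 and 8.04 at 2 months, 8.04, 8.04 and 7.99 at 4 months, 8.14, 8.20, 8.14 and 8.09 at 6 months and 7.89, 8.09 and 8.04 at 8 months. In rTg4510 it was 8.02, 8.05, 8.04 and 8.06 at 2 months, 7.97, 7.93 and 7.73 at 4 months, 8.02, 8.06, 7.86 and 7.99 at 6 months and 7.83, 7.93 and 8.01 at 8 months. The genotypes did not overlap at 4 and 6 months, where the rTg4510 libraries lay just below, and overlapped at 2 and 8 months. The log2 fold change was 0.00, -0.15, -0.16 and -0.08 at 2, 4, 6 and 8 months, with limma FDR of 0.998, 0.151, 0.0472 and 0.432. The 6-month value passed FDR in 10 of the 28 fits that left out 1 library.

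The ratio of P2rx4 to P2rx7 within a library was higher in rTg4510 by 0.10 at 2 months, 0.98 at 4 months, 1.27 at 6 months and 1.18 at 8 months on the log2 scale. The genotypes overlapped at 2 months and were separate at the other 3 ages. The mean over the 4 ages was 0.88 (SE 0.0517), with p = 1.22e-05 by exact permutation within ages and 9.18e-05 adjusted over the 15 ratio tests. It was 0.92 with quantile normalization and 0.76 with all 32 libraries. With pairs by replicate number, exact permutation within pairs gave p = 0.125 at 6 months and 0.25 at 8 months. Over the 4 ages, with pairs at every age, that permutation gave p = 0.000122.

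Adora3, which encodes the A3 adenosine receptor (chr3:105870858-105908926, plus strand, GRCm38), was lower in rTg4510 from 4 months on without reaching 1.5 fold. Its RefSeq promoter (GRCm38.p6, chr3:105904171-105904470, plus strand) is shown because it was the one printed window with 2 of the motifs searched, which are in capitals.
Adora3: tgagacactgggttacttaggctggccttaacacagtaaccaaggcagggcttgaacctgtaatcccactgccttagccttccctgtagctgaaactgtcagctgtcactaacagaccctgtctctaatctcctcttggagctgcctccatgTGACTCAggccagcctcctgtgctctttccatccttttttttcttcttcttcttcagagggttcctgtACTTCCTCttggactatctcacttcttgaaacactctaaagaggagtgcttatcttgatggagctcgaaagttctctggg
It held an AP-1 element 98 bases before the start and a PU.1 element on the minus strand 30 bases before it, with a GC content of 48.3% and 1 CpG.

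The Adora3 signal in WT was 7.35, 7.80, 7.42 and 7.65 at 2 months, 7.49, 7.88 and 7.67 at 4 months, 7.91, 7.71, 7.57 and 7.65 at 6 months and 7.50, 7.49 and 7.75 at 8 months. The rTg4510 libraries stood at 7.28, 7.67, 7.29 and 7.64 at 2 months, 7.25, 7.16 and 7.14 at 4 months, 7.26, 7.47, 7.10 and 7.30 at 6 months and 7.09, 7.24 and 7.32 at 8 months. All rTg4510 libraries lay below all WT libraries at 4, 6 and 8 months and overlapped them at 2 months. On the log2 scale the fold change was -0.08 at 2 months (FDR = 0.822), -0.50 at 4 months (SE 0.136, FDR = 0.01), -0.43 at 6 months (SE 0.118, FDR = 0.00737) and -0.36 at 8 months (SE 0.136, FDR = 0.0549), at most 1.41 fold. With the replicate number as a block, taken to pair the libraries at 8 months, the 8-month value passed FDR (0.0123), as it did with quantile normalization (-0.44, FDR = 0.0155) and centring on the 75th percentile (-0.40, FDR = 0.0262). The 4-month value passed 1.5 fold only without the first WT library of that age (-0.59), and missed FDR without the second (FDR = 0.0657). With all 32 libraries the FDR was 0.201 at 4 months and 0.17 at 6 months. Adora3 shares 779 exonic bases, 20.9% of its exonic length, with Tmigd3 on the same strand, so reads of the shared part cannot be assigned to 1 of these genes.

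Entpd1, which encodes CD39, the main ATP- and ADP-degrading enzyme on microglia (chr19:40612366-40741602, plus strand, GRCm38), fell by close to 1.5 fold from 4 months on. Its WT signal was 9.65, 9.79, 9.90 and 9.92 at 2 months, 10.25, 10.01 and 9.95 at 4 months, 10.25, 9.96, 9.98 and 10.01 at 6 months and 9.94, 9.74 and 10.01 at 8 months. Against this the rTg4510 signal was 9.56, 9.68, 9.72 and 9.69 at 2 months, 9.41, 9.31 and 9.61 at 4 months, 9.47, 9.59, 9.35 and 9.49 at 6 months and 9.31, 9.30 and 9.41 at 8 months. The genotypes overlapped at 2 months and were separate at 4, 6 and 8 months. The log2 fold change was -0.15 at 2 months (FDR = 0.409), -0.63 at 4 months (SE 0.0978, FDR = 5.06e-05), -0.58 at 6 months (SE 0.0847, FDR = 1.39e-05) and -0.56 at 8 months (SE 0.0978, FDR = 0.000158), that is 1.54, 1.49 and 1.47 fold at the last 3. The genotype difference at 4 months was larger than at 2 months by FDR (-0.47, SE 0.129, FDR = 0.0283), in a contrast where 7.33% of all genes passed FDR.

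Because Entpd1 lies so near 1.5 fold, single libraries and the scaling decided its DEG call while its FDR stayed under 0.05 from 4 months on in the fits that left out 1 library. The 4-month call ended without the second rTg4510 library (-0.56) or the first WT library (-0.53). A 6-month call appeared without the second rTg4510 library (-0.62) or without the second WT library (-0.61), the third (-0.60) or the fourth (-0.59), and an 8-month call without the third rTg4510 library (-0.59) or the second WT library (-0.64). With quantile normalization the values were -0.85, -0.85 and -0.80, all called. With the 2 groups of the age alone the FDR at 4 months was 0.0594.

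Nt5e, which encodes CD73 (chr9:88327197-88372092, plus strand, GRCm38), was too variable to compare at single ages. Its WT signal was 3.78, 3.54, 4.55 and 3.75 at 2 months, 4.96, 4.12 and 5.78 at 4 months, 4.04, 4.65, 3.33 and 4.77 at 6 months and 3.70, 5.29 and 3.45 at 8 months. In rTg4510 it was 5.34, 4.24, 3.88 and 2.84 at 2 months, 2.77, 4.97 and 3.67 at 4 months, 4.16, 4.10, 1.36 and 3.05 at 6 months and 4.66, 5.33 and 3.41 at 8 months. The genotypes overlapped at every age, and the value of 1.36 was the lowest of any gene in that library. The log2 fold change was 0.17, -1.15, -1.03 and 0.32 at the 4 ages, with limma FDR of 0.953, 0.322, 0.256 and 0.813 and 95% intervals as wide as -2.76 to 0.47 at 4 months. Its spread within groups (residual SD 0.947) was larger than that of 96.3% of all genes, against 0.0861 to 0.167 for the other 7 members and a median of 0.232. At a single age a 2-fold difference in Nt5e was not detectable with this spread. Over the mean of the 4 ages it was -0.42 (limma, FDR = 0.354), with a 95% interval of -1.18 to 0.33. The ratio of Entpd1 to Nt5e within a library differed by -0.06 over the 4 ages (SE 0.372, p = 0.882 by permutation within ages).

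With age, both ADP receptor genes fell in each genotype. In WT from 2 to 8 months P2ry12 fell by 0.45 (FDR = 0.0181, 1.36 fold) and P2ry13 by 0.63 (FDR = 0.00247, 1.55 fold) on the log2 scale, where 1.27% of all genes were DEGs and 4.21% passed FDR, and the other 6 genes did not pass FDR. The P2ry13 call was lost without the first WT library of 8 months (-0.56), and also with all 32 libraries. The WT library left out at 8 months lay at 11.59 for P2ry13, above the kept 10.81 to 11.14. For P2ry12 it lay at 10.99, above the kept 10.47 to 10.67. In rTg4510 over the same interval P2ry12 fell by 0.70 (FDR = 3.39e-05, 1.63 fold) and P2ry13 by 1.06 (FDR = 2.29e-07, 2.08 fold), and P2rx4 rose by 1.05 (FDR = 1.05e-08, 2.07 fold), where 10.5% of all genes were DEGs and 21.7% passed FDR. Entpd1 fell by 0.32 (FDR = 0.0135), under 1.5 fold. The difference between the genotypes in this change was -0.26 for P2ry12 (limma, FDR = 0.341) and -0.43 for P2ry13 (limma, FDR = 0.0797), neither past the threshold.

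In rTg4510, P2rx4 and P2ry13 had already changed between 2 and 4 months. Over that interval P2ry13 changed by -0.79 (FDR = 2.2e-05) and P2rx4 by 0.74 (FDR = 2.58e-06), both DEGs where 6.39% of all genes were, and P2ry12 by -0.39 (FDR = 0.0131), where 15.2% passed FDR. Between 4 and 6 months P2rx4 rose by a further 0.44 (FDR = 0.00773, 1.36 fold), with 0.818% of all genes called DEGs and 1.73% past FDR. With all 32 libraries the call of P2ry13 from 2 to 4 months (-0.56) and that of P2ry12 from 2 to 8 months (-0.51) were lost.

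The order of the 8 group means differed between the genes. For P2rx4 it ran from rTg4510 at 6 months (7.77), 8 months (7.64) and 4 months (7.33) to WT at 6 months (6.65), rTg4510 at 2 months (6.59) and WT at 8, 4 and 2 months (6.54, 6.50 and 6.49), and the libraries of the first 3 groups did not overlap those of the next in the order, while the last 5 overlapped their neighbours. For P2ry13 it ran from WT at 2 months (11.59), 6 months (11.38) and 4 months (11.14) through rTg4510 at 2 months (11.10) and WT at 8 months (10.95) to rTg4510 at 4, 6 and 8 months (10.31, 10.29 and 10.04). For P2ry12 the lowest group, rTg4510 at 8 months (10.14), was apart from the next, rTg4510 at 6 months (10.45), and every other neighbouring pair overlapped.

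Each gene was also set beside the 13846 protein-coding genes by Pearson's r over the 28 libraries, which share the genotype and age differences of the design, as a description. P2rx4 lay nearest to Soat1 (r = 0.98), Apoe (0.977) and Egfem1 (0.977), of which Soat1 encodes a cholesterol-esterifying enzyme and Apoe the main lipid carrier of the brain. P2ry13 lay nearest to Cd164 (0.963), Itgam (0.963), which encodes CD11b, the antigen of the beads, and Gpr34 (0.96), another P2Y-like receptor gene. P2ry12 lay nearest to Hs3st2 (0.89), Ccr6 (0.887) and Arsb (0.886), Entpd1 to Ifngr1 (0.934), Slco2b1 (0.926) and Fcgr1 (0.926), and Adora3 to Ganc (0.909), Kdm3b (0.898) and Herc2 (0.874). The nearest gene of P2rx7 was Coq2 (0.803), that of P2ry6 was Elovl1 (0.776) and that of Nt5e was Pcolce (0.664).

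The wider pathway was followed on a list of 52 genes of nucleotide and adenosine receptors, ectonucleotidases, nucleotide release and P2Y12 signalling partners, of which 43 were in the table. In rTg4510 0 were DEGs at 2 months by limma (7 of 43 at an unadjusted p under 0.05, a share close to the 16.5% of all genes), 2 rose and 5 fell at 4 months, 2 rose and 6 fell at 6 months and 3 rose and 5 fell at 8 months, read against the shares of all genes given above. Over the 4 ages 12 of 43 were called at least once, 3 higher and 9 lower, and 31 at none, where 25.1% of all genes were called at least once, and the median of the 43 was 0, -0.17, -0.13 and -0.14. No gene listed as an adenosine receptor, a nucleotide release channel or a P2Y12 signalling partner was called at any single age.

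Among the other receptor genes, P2rx1, which encodes a P2X channel known from platelets and smooth muscle, fell by 1.02 at 4 months (FDR = 0.00131), 1.76 at 6 months (FDR = 1.89e-07) and 1.63 at 8 months (FDR = 5.58e-06) on the log2 scale. Its libraries lay at 3.13 to 3.48 in rTg4510 and 4.78 to 5.46 in WT at 6 months, and at 3.12 to 3.43 and 4.56 to 5.30 at 8 months. P2ry10b, a relative of the lysophosphatidylserine receptor gene P2ry10, fell by 0.66, 1.62 and 1.18 at the same ages (FDR = 0.01, 3.84e-08 and 3.11e-05), and Gpr34, a lysophosphatidylserine receptor gene of microglia, by 0.63, 0.70 and 0.87 (FDR = 4.46e-06, 7.09e-08 and 4.73e-08). The summed log2 level of the 7 neutrophil markers overlapped between the genotypes at 2 months (WT 9.09 to 9.84, rTg4510 8.72 to 10.39). At that age the mean of P2ry10b was 5.55 in WT and 5.02 in rTg4510, and that of Gpr34 10.26 and 9.81. The neutrophil sum was 9.13 to 10.05 in WT and 8.2 to 8.95 in rTg4510 at 4 months. It was 9.05 to 10.29 and 7.43 to 8.15 at 6 months, and 9.94 to 10.33 and 7.75 to 9.06 at 8 months. Of the 3 platelet markers measured, 1 (Gp9) was called lower at each of 4, 6 and 8 months, while of 4 B cell markers 2 were called lower at 4 months and 0 at the other ages. The part of these cells in the receptor values was not tested.

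P2ry2, which encodes an ATP and UTP receptor, rose by 0.84 at 4 months (FDR = 0.0214), 1.60 at 6 months (FDR = 6.95e-06) and 1.61 at 8 months (FDR = 5.06e-05). Its rTg4510 libraries lay at 5.60 to 6.44 at 6 months and 6.03 to 6.22 at 8 months, above the WT libraries at 3.94 to 4.84 and 4.11 to 4.81. The 4-month call was lost without any 1 of the first rTg4510 library (0.61), the fourth (0.81), the second WT library (0.74) or the fourth (0.78) of that age. P2ry1, another ADP receptor gene, was called at 4 months alone (-1.49, FDR = 0.0127), and not without the second rTg4510 library (-1.13). P2rx3, a channel gene of sensory neurons, was not called at 6 months (-1.06, FDR = 0.0631) but was with the replicate number as a block (FDR = 0.0469). The 4-month calls of P2ry10b and Gpr34 were lost without the first rTg4510 library (-0.53) and without the second WT library (-0.55) of that age, in that order.

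Of the nucleotide-handling enzymes, Enpp1, which cleaves ATP to AMP and pyrophosphate, rose by 1.18 at 4 months (FDR = 1.28e-06), 1.31 at 6 months (FDR = 1.83e-08) and 1.27 at 8 months (FDR = 3.55e-07). Its rTg4510 libraries lay at 5.84 to 6.17, 6.12 to 6.46 and 6.03 to 6.23 at these ages and its WT libraries at 4.76 to 4.90, 4.63 to 5.18 and 4.58 to 5.18, with no overlap. The genotype difference of Enpp1 grew from 2 to 4 months by 0.91 (FDR = 0.00356) and from 2 to 8 months by 1 (FDR = 0.00116), both past the DEG threshold. Pnp, which splits inosine and guanosine, fell at all 4 ages, by 0.25, 0.56, 0.73 and 0.83 (FDR = 0.0262, 8.31e-06, 1.69e-08 and 3.82e-08), past 1.5 fold at 6 and 8 months and, without the fourth rTg4510, the second WT or the fourth WT library of 4 months (each -0.59), at 4 months too. Entpd7 rose at 8 months (0.71, FDR = 0.00351), a call lost with all 32 libraries (0.45). Enpp4 (-1.05, FDR = 0.0043) and Enpp5 (-1.62, FDR = 0.00888) fell at 6 months. The Enpp5 call was also lost with all 32 libraries (FDR = 0.0521). Ada, the adenosine deaminase gene, was called at 4 months (-0.75, FDR = 0.0211) and not without any 1 of 4 libraries of that age, the first rTg4510 and the fourth rTg4510 (both -0.69) and the first (-0.70) and second (-0.65) WT library. Alpl, which encodes an alkaline phosphatase of neutrophils among other cells, was called at 8 months (-1.68, FDR = 0.031), and not without the first rTg4510 library, the third rTg4510 library or any 1 WT library of that age, with values from -1.76 to -1.52.

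**Figure D5:**
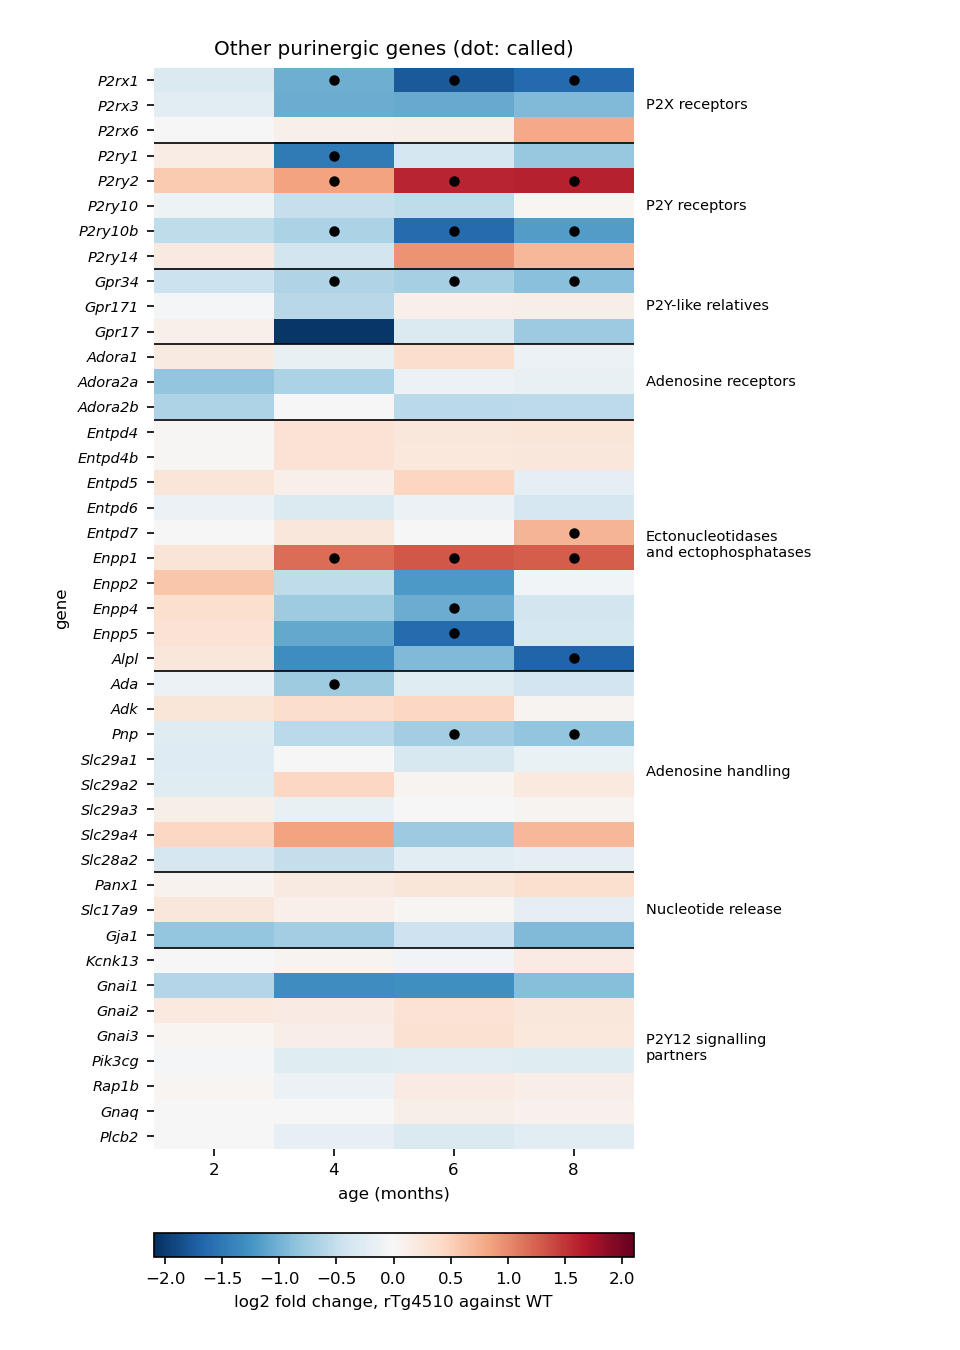
Log2 fold change of rTg4510 against WT for the 43 detected genes of the wider list at 4 ages, grouped by role, red for higher and blue for lower, with a dot on each DEG. P2ry2 and Enpp1 are red and P2rx1, P2ry10b and Gpr34 blue, each with a dot, at 4, 6 and 8 months.

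Among the signalling partners of P2Y12, Gnai1, which encodes a Gi subunit, was called at no single age (-1.30 with FDR = 0.248 at 4 months, -1.28 with FDR = 0.146 at 6 months) and was called lower over the mean of the 4 ages (-1.02, FDR = 0.0236). Gnai2, which encodes another, was higher at all 4 ages by 0.21, 0.18, 0.30 and 0.23 (FDR = 0.0162, 0.0353, 0.000105 and 0.00586), each under 1.5 fold. Kcnk13, the gene of the THIK-1 potassium channel, had log2 fold changes of -0.01, 0.06, -0.05 and 0.17 at 2, 4, 6 and 8 months and did not pass FDR at any of them.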

How the data were processed

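RNA was sequenced from CD11b-selected microglia, and the authors deposited 1 table of log2 gene signals with 18588 Entrez IDs and 32 libraries. Per the study's methods, exon reads of a library were summed, exons with few counts in most samples were dropped, a robust linear model over the exons gave the gene signal, and the log2 values were median normalized by in-house pipelines. The aligner is not given in the sources used here. The submitters' processing notes name GRCm38. Such log2 signals carry no counts, so a linear model was used and no count test, and since they are not stated to be per length, levels of the members were not compared with each other.

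IDs were matched to RefSeq symbols for 17828 genes (95.9%), positions came from GENCODE vM21 and promoters from RefSeq (GRCm38.p6). Group means of the 8 genotype and age groups were fitted with limma 3.58.1 (R 4.3.3, 20 residual degrees of freedom, unmoderated t statistics), with Benjamini-Hochberg FDR per contrast, and DEGs were required to pass 1.5 fold and an FDR threshold of 0.05. On simulated data with 100 genes of each size, a log2 change of 1 was recovered for 75%, 56%, 68% and 66% of genes at 2, 4, 6 and 8 months. All other genes were simulated without a difference, so these shares do not give the recovery in the real contrasts, where many more genes differed. Named genes are the 8 members, genes of the wider list called at any age or needed for a count, the 3 protein-coding genes nearest to each member by Pearson's r, and overlapping genes. P2ry1, P2rx3, P2ry14, Gnai2 and Kcnk13 were named with their values known. The members and all lists were chosen with earlier results of these data known. Ratios within a library were tested by permutation of genotype within age.

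Libraries carry replicate numbers. Deviations from group means correlated between same-numbered libraries at 0.131 to 0.153 at 6 months and 0.15 to 0.291 at 8 months, and at 0.0649 to 0.167 at 2 months and -0.0999 to 0.124 at 4 months, so the numbers were taken to pair libraries at 6 and 8 months only, from the values and not from a label. Alternatives were moderated variance, all 32 libraries, the 2 groups of an age alone, the replicate block, quantile normalization, other centring, leaving out the lowest 25% of genes, and leaving out each library. Figures were drawn with matplotlib 3.10.9.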

Additional observations from a re-analysis of the deposited data

Results flagged for a closer look

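The genotype difference of P2rx4 was larger at 4 than at 2 months by 0.74 (limma FDR = 0.000425) and larger at 8 than at 2 months by 1 (limma FDR = 1.01e-05), by a test of the difference between ages. With all 32 libraries the first of these was 0.41 and not past FDR. The genotype difference of Entpd1 was more negative at 4 than at 2 months by -0.47 (limma FDR = 0.0283) in the same test.

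The rTg4510 libraries that the study left out for failed quality control lay above every kept WT library of their age for some of the 8 genes and below for others. In the rTg4510 library left out at 4 months P2rx4 was 6.83 (kept WT 6.34 to 6.71), P2rx7 8.81 (7.99 to 8.04), Adora3 8.23 (7.49 to 7.88) and Nt5e 6.13 (4.12 to 5.78). In the one left out at 8 months P2ry12 was 10.94 (10.47 to 10.67), P2rx4 8.24 (6.38 to 6.69), P2rx7 8.34 (7.89 to 8.09) and Adora3 7.77 (7.49 to 7.75). Below every kept WT library were P2ry12 (9.95), P2ry6 (10.11) and Entpd1 (8.75) in the first and P2ry13 (10.68), P2ry6 (10.37) and Entpd1 (9.73) in the second. The WT libraries left out were also above the kept WT range for some of the 8 genes. At 4 months these were P2ry12 (11.18), P2ry13 (11.96), P2rx4 (7.29), P2rx7 (8.28) and Adora3 (8.28). At 8 months they were P2ry12 (10.99), P2ry13 (11.59), P2rx4 (7.07), P2rx7 (8.32) and Adora3 (8.16). P2ry6 (10.38) and Nt5e (3.34) lay below the kept WT range at 4 months. Dixon's outlier test flagged 0 of 32 combinations of the 8 genes and the kept groups of 4 libraries. With 4 values this test flags only an extreme gap, so a library can still lie apart from the other 3. Unflagged values at 6 months included 10.25 for Entpd1 in WT, against 9.96 to 10.01. They also included 1.36 for Nt5e in rTg4510, against 3.05 to 4.16. The groups of 3 libraries, at 4 and 8 months, were not looked at.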

How the results depend on the processing

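Among the called results of the 8 genes no value changed sign under any alternative run. With all 32 libraries 0 of the 8 genes were called higher at 4 months. With the 2 groups of the age alone 0 were called lower at 4 months, and 1 gene of the wider list was called higher and 1 lower at that age. Quantile normalization called 1, 3 and 3 of the 8 genes lower at 2, 6 and 8 months, and 1 of the wider list lower at 2 months (Gpr34, -0.62). Centring on the 75th percentile called 2 lower at 6 and at 8 months, and scaling to the same total linear signal called 2 lower at 6 months. These 3 alternatives moved Entpd1, and quantile normalization also P2ry12 and P2ry13, past 1.5 fold, and the cause was not tested. Over the 28 fits that left out 1 library each, the genes called lower among the 8 numbered 1 to 2 at each of 4, 6 and 8 months. In the wider list those called lower numbered 0 to 1 at 2 months (P2ry10b, without the second rTg4510 library at -0.59 or the second WT library at -0.70) and 3 to 8 at 4 months, and those called higher 1 to 2 at 4 months. The mean ratio difference stayed at 0.55 to 0.59 for P2ry12 over P2ry13 and 0.85 to 0.91 for P2rx4 over P2rx7, and ran from -0.22 to 0.11 for Entpd1 over Nt5e.

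With the replicate number as a block, P2rx4 differed by 1.11 at 6 months (limma FDR = 1.29e-06) and 1.09 at 8 months (FDR = 6.61e-06). P2ry13 differed by -1.08 (FDR = 1.2e-05) and -0.91 (FDR = 0.000159) at these ages. At 4 months, where the numbers were not taken to pair, P2rx4 differed by 0.83 (FDR = 4.38e-05) and P2ry13 by -0.83 (FDR = 0.000374). No DEG call of the 8 genes changed at any age, while Adora3 at 8 months passed FDR alone (0.0123). With pairs by number the ratio tests of both receptor pairs gave p = 0.125 at 6 months by exact permutation, the smallest that 4 pairs allow. Over the mean of the 4 ages, with pairs at every age, both gave p = 0.000122 by exact permutation within pairs. Only P2rx3 and P2ry14 of the wider list became calls, both at 6 months. DEGs over all genes numbered 376, 2553, 3712 and 2993 at the 4 ages with the block and 368, 2564, 3689 and 2950 without it. They numbered 165 at 2 months with all 32 libraries, and 244, 1561 and 1854 at 2, 4 and 8 months with the 2 groups of the age alone. The share of DEGs that were higher at 2 months was 79.6%, against 68.3% with quantile normalization and 67.7% with the same total signal. Leaving out the lowest 25% of genes removed Nt5e, which has no value there. The read depth behind the signals is unknown, so the precision of a gene such as Nt5e rests on the spread between libraries.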
